A study of Mus musculus with 7 samples.

Results

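Transcripts of 10 alcohol and aldehyde dehydrogenases were followed in mouse liver: Adh1, Adh4, Adh5 and Adh7 among the alcohol dehydrogenases, and Aldh1a1, Aldh1a7, Aldh1b1, Aldh1l1, Aldh2 and Aldh3a2 among the aldehyde dehydrogenases. They were picked by gene symbol from the 23347 genes of the deposited count table, and all 10 had enough reads to be tested. RNA sequencing covered 7 male C57BL/6 mice, 1 liver library each, of which 4 carried B4galt1 flox/flox and are labelled WT, and 3 are labelled B4galt1-HKO. B4galt1 encodes a galactosyltransferase that adds galactose to glycoproteins, and in the HKO mice, B4galt1 hep-/- in the study's terms, Alb-Cre removes the floxed gene in cells that use the albumin promoter, which are mainly hepatocytes. The controls were flox/flox littermates, so the presence of Alb-Cre and the loss of B4galt1 cannot be told apart. All mice started between 6 and 8 weeks of age on the CDAHFD, a choline-deficient high-fat diet that produces steatohepatitis, and stayed on it for 15 weeks, so no value here comes from a liver without the diet, and chow-fed livers were not analysed here.

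B4galt1 itself was measured at 48.7, 53.0, 49.2 and 51.6 CPM in WT replicates 1 to 4 and 28.4, 23.9 and 53.7 CPM in replicates 1 to 3 labelled B4galt1-HKO, where CPM are counts scaled to library size after TMM normalization. In CPM replicate 3 labelled B4galt1-HKO lay above all 4 WT livers and the other two below them. In the deposited FPKM, which are scaled to the library total, replicate 3 lay below all 4 as well, at 11.9 against 12.2 to 14.04 in WT. The fitted log2 fold change was -0.52 (SE 0.26, adjusted p = 0.181) in edgeR's quasi-likelihood test. Whether the counted reads include exons that Cre leaves in place was not examined. The groups are therefore given as labelled, and the calls of the members and of the wider family are also given without replicate 3. Libraries held 37838654 to 39668509 counts in WT and 30608271 to 34586588 counts in livers labelled B4galt1-HKO. Mitochondrially encoded transcripts took 5.79% ± 1.70 (SD, n = 4) of counts in WT and 19.7% ± 4.58 (SD, n = 3) in livers labelled B4galt1-HKO (two-sided exact permutation p = 0.0286, the smallest that 4 against 3 mice allow). Hepatocyte markers were abundant in every library, with a summed level of 99265 to 141950 CPM in WT and 105370 to 169460 CPM in livers labelled B4galt1-HKO. Alb made up most of that sum, with means of 75054 CPM in WT and 91684 CPM in livers labelled B4galt1-HKO. Because these are whole livers, fewer cells of a type and less RNA per cell cannot be told apart.

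Alcohol dehydrogenases oxidize alcohols, ethanol and retinol among them, to aldehydes with NAD+ as the electron acceptor, and aldehyde dehydrogenases carry the aldehydes on to carboxylic acids. In hepatocytes, where both families are abundant, the first step for ethanol takes place in the cytosol and acetaldehyde is cleared largely in mitochondria. The same enzymes handle aldehydes that cells make themselves, such as retinaldehyde, formaldehyde and the long-chain aldehydes released from lipids.

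The alcohol dehydrogenase genes lie next to each other on chromosome 3, in the order Adh7, Adh1, Adh6a, Adh6b, the pseudogene Adh6-ps1, Adh4 and Adh5. Aldh1a1 and Aldh1a7 lie on chromosome 19, and the others lie apart, Aldh1b1 on chromosome 4, Aldh2 on chromosome 5, Aldh1l1 on chromosome 6 and Aldh3a2 on chromosome 11. Their NCBI gene identifiers in the deposited table are 11522 for Adh1, 26876 for Adh4, 11532 for Adh5, 11529 for Adh7, 11668 for Aldh1a1, 26358 for Aldh1a7, 72535 for Aldh1b1, 107747 for Aldh1l1, 11669 for Aldh2 and 11671 for Aldh3a2. RefSeq promoter windows of 300 bases, 250 before the annotated start and 50 after it, were found for 9 of the 10 genes, with 11 windows in all. Those of Adh4 and Adh1 are shown because these genes of 1 cluster had the lowest and a near-zero fitted change among the members, and those of Aldh1a1 and Aldh1a7 because these are close relatives. Sequences run 5′ to 3′ in the direction of the gene, positions are on GRCm38.p6, whereas the submitters' processing notes name GRCm39 for the counts, and capitals mark AGGTCA, a half-site bound by nuclear receptors, and CCAAT, the CCAAT box, on either strand (TGACCT and ATTGG when read from the other strand).
Adh4, chr3:138415247-138415546, plus strand: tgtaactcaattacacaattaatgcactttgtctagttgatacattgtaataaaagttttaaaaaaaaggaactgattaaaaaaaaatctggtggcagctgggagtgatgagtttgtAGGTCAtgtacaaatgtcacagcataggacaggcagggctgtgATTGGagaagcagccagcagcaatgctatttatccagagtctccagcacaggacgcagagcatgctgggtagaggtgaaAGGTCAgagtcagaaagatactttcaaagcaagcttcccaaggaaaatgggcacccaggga
Adh1, chr3:138277335-138277634, plus strand: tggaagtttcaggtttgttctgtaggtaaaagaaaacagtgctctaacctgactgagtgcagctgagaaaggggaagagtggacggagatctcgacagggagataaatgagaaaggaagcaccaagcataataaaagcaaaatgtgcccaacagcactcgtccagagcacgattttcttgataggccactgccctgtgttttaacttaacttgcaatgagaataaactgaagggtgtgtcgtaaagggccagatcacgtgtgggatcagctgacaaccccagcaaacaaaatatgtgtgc
Aldh1a1, chr19:20601718-20602017, plus strand: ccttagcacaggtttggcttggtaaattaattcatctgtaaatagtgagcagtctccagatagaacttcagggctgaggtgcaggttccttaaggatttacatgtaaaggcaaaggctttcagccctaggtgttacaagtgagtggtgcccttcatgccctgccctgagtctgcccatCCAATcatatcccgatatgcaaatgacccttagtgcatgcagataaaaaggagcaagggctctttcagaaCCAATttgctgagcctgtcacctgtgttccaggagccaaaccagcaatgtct
Aldh1a7, chr19:20727507-20727806, minus strand: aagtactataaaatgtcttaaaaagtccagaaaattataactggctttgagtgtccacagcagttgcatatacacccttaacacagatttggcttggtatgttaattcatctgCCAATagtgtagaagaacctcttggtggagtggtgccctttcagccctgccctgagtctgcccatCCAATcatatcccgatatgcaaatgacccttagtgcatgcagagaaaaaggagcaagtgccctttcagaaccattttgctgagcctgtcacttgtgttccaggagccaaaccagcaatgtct

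The Adh4 window held AGGTCA 133 and 11 bases before the start and CCAAT, on the reverse strand, 90 bases before it. The Adh1 window held neither motif. CCAAT stood 72 and 2 bases before the start in the second of the 2 Aldh1a1 windows, the one shown, and 137 and 72 bases before it in Aldh1a7. Over the members, AGGTCA occurred in 2 of 11 windows, the other being that of Aldh1l1, and CCAAT in 7 of 11, against 16.3% and 37.4% of all 32851 windows in the RefSeq table. A letter match is a description of the window and not a binding site. The Aldh1a1 and Aldh1a7 windows shared an unbroken run of 65 identical bases, and the longest run between any other pair of member windows was 12 bases.

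In livers labelled B4galt1-HKO, 4 of the 10 transcripts were called lower and none higher by edgeR, with thresholds of 0.05 on the adjusted p and 0.58 on the size of the log2 fold change. Adh4 and Aldh1a1 fell most, to 0.337 and 0.36 times their fitted WT levels, followed by Aldh3a2 and Aldh1b1 at 0.555 and 0.57 times. Of all 15179 genes tested, 15.8% were called by the same rule, 7.83% lower and 8% higher. At an unadjusted p under 0.05, 6 members were lower and 1 was higher, Adh7, and DESeq2, voom and limma on log2(FPKM + 1) each called 6 lower and 0 higher. Of all genes tested, 16.1% were lower and 16.8% higher at that unadjusted p. DESeq2, voom and limma called 10.3%, 9.53% and 15.8% of the genes they tested lower and 11.3%, 10.2% and 5.15% higher. The ranges of the 2 groups did not overlap for 6 of the 10 transcripts, each lower in livers labelled B4galt1-HKO, where 28.6% of all genes tested had separated ranges and 15% had them in this direction. In FPKM the ranges were separated for 6 members that were lower and for 1 that was higher, Adh7, beside 21.2% and 8.14% of all genes tested. Fitted changes were below 0 for 8 of 10 members and for 48.7% of genes tested, with a median log2 fold change of -0.77 over the members and 0.02 over all genes. Without WT replicate 2, WT replicate 4 or replicate 2 labelled B4galt1-HKO, 2 members were called, Adh4 and Aldh1a1, beside 3.16%, 5.35% and 3.84% of all genes called lower. Without replicate 3 labelled B4galt1-HKO, 6 were called, beside 7.51%.

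**Figure D1:**
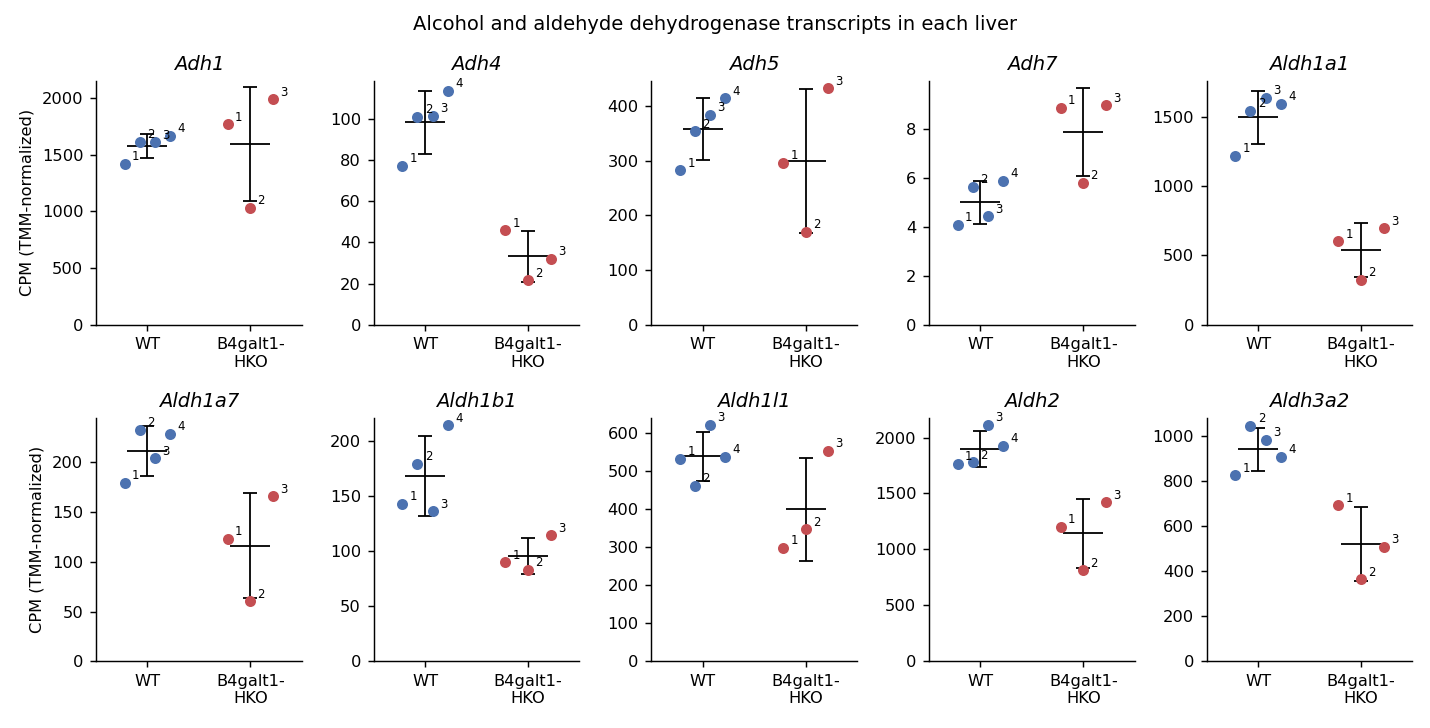
Level of each of the 10 transcripts in every liver, in TMM-normalized CPM on a linear axis that starts at 0. Points are single mice with their replicate number, blue for WT (n = 4) and red for livers labelled B4galt1-HKO (n = 3), and bars give the mean and SD. The red points lie below every blue point for Adh4, Aldh1a1, Aldh1a7, Aldh1b1, Aldh2 and Aldh3a2.

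Among the alcohol dehydrogenases, 1 of 4 genes was called. Adh4, the class II enzyme, active on retinol and on larger alcohols, was measured at 77.2, 101, 102 and 114 CPM in WT replicates 1 to 4 and 46.0, 21.5 and 32.1 CPM in replicates 1 to 3 labelled B4galt1-HKO. Every liver labelled B4galt1-HKO lay below every WT liver, and replicate 2 was the lowest. The means were 98.5 ± 15.3 (SD, n = 4) in WT and 33.2 ± 12.3 (SD, n = 3) CPM in livers labelled B4galt1-HKO, with a log2 fold change of -1.57 (SE 0.26, adjusted p = 0.00545) and a 95% interval of -2.14 to -0.995. Adh4 was called lower under all 19 alternative settings, with log2 fold changes between -1.89 and -1.34.

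Adh1, the class I enzyme that carries out most ethanol oxidation in liver, stood at 1422, 1617, 1612 and 1669 CPM in WT replicates 1 to 4 and 1769, 1033 and 1991 CPM in replicates 1 to 3 labelled B4galt1-HKO. The groups overlapped, since replicates 1 and 3 labelled B4galt1-HKO were above all WT livers and replicate 2 was below them, while in FPKM replicate 1 was within the WT range. The log2 fold change was 0.02 (SE 0.25, adjusted p = 0.973) with a 95% interval of -0.53 to 0.57, and its sign depended on the scaling and on which mice were included, from -0.18 to 0.25 over the alternatives. Adh5, the class III enzyme that removes formaldehyde bound to glutathione, was at 282, 353, 384 and 414 CPM in WT replicates 1 to 4 and 296, 170.3 and 432 CPM in replicates 1 to 3 labelled B4galt1-HKO. Here too replicate 2 lay below all WT livers while replicate 3 lay above them, but in FPKM replicate 3 was within the WT range and replicate 1 below it. Its log2 fold change was -0.26 (SE 0.29, adjusted p = 0.566) with a 95% interval of -0.89 to 0.37. Adh7, the class IV enzyme best known from stomach and other epithelia, was scarce, at 4.07, 5.62, 4.43 and 5.88 CPM in WT replicates 1 to 4 and 8.86, 5.79 and 8.95 CPM in replicates 1 to 3 labelled B4galt1-HKO. Replicates 1 and 3 were above all WT livers and replicate 2 was within the WT range, while in FPKM all 3 were above it. Adh7 had the highest fitted change of the 10, at 0.65 (SE 0.26, adjusted p = 0.105), with a 95% interval of 0.09 to 1.22, and was called under none of the 19 alternatives.

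Aldh1a1, the cytosolic enzyme that turns retinaldehyde into retinoic acid, was the second most reduced member. It was measured at 1217, 1545, 1639 and 1594 CPM in WT replicates 1 to 4 and 601, 324 and 695 CPM in replicates 1 to 3 labelled B4galt1-HKO. The lowest WT liver, replicate 1, was above the highest liver labelled B4galt1-HKO, replicate 3. The means were 1499 ± 191 (SD, n = 4) and 539.9 ± 193 (SD, n = 3) CPM, the log2 fold change was -1.47 (SE 0.28, adjusted p = 0.00881) with a 95% interval of -2.09 to -0.86, and the call held under all 19 alternatives, at -1.70 to -1.21. Its close relative Aldh1a7 was measured at 179, 232, 204 and 228 CPM in WT replicates 1 to 4 and 123, 60.2 and 165 CPM in replicates 1 to 3 labelled B4galt1-HKO. The groups did not overlap, although WT replicate 1 and replicate 3 labelled B4galt1-HKO were close to each other. The log2 fold change of Aldh1a7 was -0.86 (SE 0.30, adjusted p = 0.0686) with a 95% interval of -1.51 to -0.21, which missed the threshold, and 7 of 19 alternatives called it, the fit without replicate 3 labelled B4galt1-HKO among them (-1.21, adjusted p = 0.0276). Whether the 2 genes differ in their change was not tested. The annotated transcripts of Aldh1a1 and Aldh1a7 agreed at 90.2% of 2031 aligned bases. Of their 50-base stretches 6.54% and 7.49% were shared between them, and of their 100-base stretches 0.0443% and 0.0508%. A part of the reads could therefore have been assigned to either gene or discarded, a smaller part the longer the reads. Both values are uncertain to that extent.

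Among the mitochondrial acetaldehyde-oxidizing enzymes, Aldh1b1 was called lower. It was measured at 143, 179, 136 and 214 CPM in WT replicates 1 to 4 and 89.8, 83.2 and 115 CPM in replicates 1 to 3 labelled B4galt1-HKO. All livers labelled B4galt1-HKO were below the WT range, with replicate 3 the nearest to it. The log2 fold change was -0.81 (SE 0.22, adjusted p = 0.0316), and the call was lost without any 1 of WT replicate 2 (adjusted p = 0.0878), WT replicate 4 (0.0761), replicate 1 labelled B4galt1-HKO (0.0775) and replicate 2 labelled B4galt1-HKO (0.0823). Aldh2, the main enzyme of acetaldehyde clearance, was measured at 1763, 1779, 2112 and 1929 CPM in WT replicates 1 to 4 and 1201, 815 and 1421 CPM in replicates 1 to 3 labelled B4galt1-HKO. The groups did not overlap, with replicate 2 again the lowest. With a log2 fold change of -0.73 (SE 0.24, adjusted p = 0.0617) and a 95% interval of -1.26 to -0.20 it missed the threshold in edgeR, and 8 of 19 alternatives called it lower, including DESeq2 (-0.72, adjusted p = 0.00983) and the fit without replicate 3 labelled B4galt1-HKO (-0.92, adjusted p = 0.0356).

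Aldh3a2, the fatty aldehyde dehydrogenase of the endoplasmic reticulum, was measured at 828, 1049, 986 and 908 CPM in WT replicates 1 to 4 and 695, 365 and 510.4 CPM in replicates 1 to 3 labelled B4galt1-HKO. All 3 livers labelled B4galt1-HKO were below all WT livers. The log2 fold change was -0.85 (SE 0.25, adjusted p = 0.0397), called in edgeR with all 7 mice, and the call was lost without WT replicate 2 (adjusted p = 0.108), WT replicate 3 (0.0817), WT replicate 4 (0.067), replicate 2 labelled B4galt1-HKO (0.095) or replicate 3 labelled B4galt1-HKO (0.0748). Aldh1l1, which oxidizes the formyl group of formyltetrahydrofolate to carbon dioxide, was measured at 532, 463, 623 and 539 CPM in WT replicates 1 to 4 and 298, 348 and 554 CPM in replicates 1 to 3 labelled B4galt1-HKO. Replicates 1 and 2 lay below the WT range and replicate 3 lay inside it. The log2 fold change was -0.43 (SE 0.25, adjusted p = 0.244) with a 95% interval of -0.97 to 0.11, and it was called lower in 1 of 19 alternatives, the fit without replicate 3 labelled B4galt1-HKO (-0.75, adjusted p = 0.0478). Annotated genes overlap Adh1, Adh7, Aldh1l1 and Aldh2 on the opposite strand, and whether counting used strand is not given in the sources used here, so reads of these partners cannot be told apart from theirs. Another annotated gene, Gm45901, overlaps Aldh1l1 on the same strand.

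The 3 livers labelled B4galt1-HKO did not contribute equally. Replicate 2 had the lowest level of the 3 for 9 of the 10 members, and replicate 1 for the remaining one, Aldh1l1, in CPM. In FPKM replicate 2 was lowest for 8 and replicate 1 for 2, Aldh1l1 and Aldh1b1. Replicate 2 lay below all WT livers for 9 members, replicate 1 for 7 and replicate 3 for 6. The matching shares over all genes tested were not computed, so these counts have no background beside them. The median log2 ratio of the members to their WT mean was -0.72 in replicate 1, -1.15 in replicate 2 and -0.38 in replicate 3, whereas over all genes tested these medians were between -0.03 and -0.02. With 3 mice this order is a description.

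**Figure D2:**
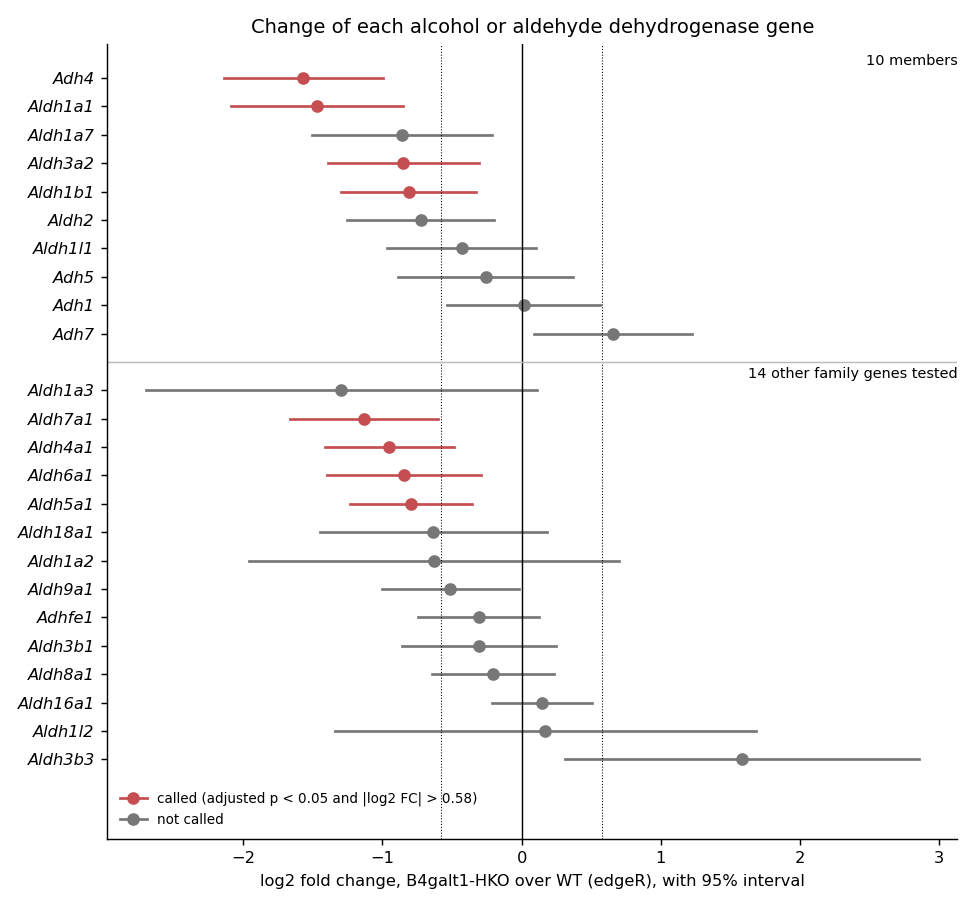
Fitted log2 fold change of livers labelled B4galt1-HKO over WT for the 10 members (top) and the 14 other alcohol and aldehyde dehydrogenase genes tested (bottom). Lines are 95% intervals from edgeR, dotted lines stand at a log2 fold change of 0.58 in either direction, and red marks called genes. 4 genes of each set were called, all of them lower.

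The rest of both families was read in the same fit. Of 18 other alcohol and aldehyde dehydrogenase genes, 14 had enough counts to be tested. edgeR called 4 of them lower and none higher, beside 7.83% and 8% of all genes tested. DESeq2 also called 4 and 0, beside 10.3% and 11.3%. Fitted changes were below 0 for 11 of the 14 and for 48.7% of all genes tested. At an unadjusted p under 0.05, 5 were lower and 1 was higher, Aldh3b3, beside 16.1% and 16.8% of all genes tested. The median log2 fold change of the 14 was -0.57. Aldh7a1, an enzyme of lysine breakdown, was measured at 278, 274, 312 and 314 CPM in WT replicates 1 to 4 and 124, 93.6 and 185 CPM in replicates 1 to 3 labelled B4galt1-HKO, with a log2 fold change of -1.13 (SE 0.24, adjusted p = 0.0128). Aldh4a1, which completes the breakdown of proline to glutamate, had a log2 fold change of -0.95 (SE 0.21, adjusted p = 0.0149). Those of Aldh6a1, an enzyme of valine breakdown, and Aldh5a1, which oxidizes succinate semialdehyde from GABA, were -0.85 (SE 0.25, adjusted p = 0.0429) and -0.79 (SE 0.20, adjusted p = 0.0241). These 4 enzymes work in mitochondria for the most part. The ranges of these 4 called genes did not overlap between the groups, where 15% of all genes tested had ranges separated in this direction. Aldh9a1, which acts in carnitine synthesis, had separated ranges without a call (-0.51, adjusted p = 0.137). The 2 transcripts with a fitted change beyond 1 in size that were not called, Aldh1a3 (-1.30, adjusted p = 0.183) and Aldh3b3 (1.58, adjusted p = 0.0835), had WT means of 1.27 and 0.215 CPM. Adh6a, Adh6b, Aldh3a1 and Aldh3b2 reached at most 12 counts in any library and were not tested. Without WT replicate 2, WT replicate 4 or replicate 2 labelled B4galt1-HKO, 2 genes of the wider family were called lower. In these fits 3.16%, 5.35% and 3.84% of all genes were called lower. Without replicate 1 labelled B4galt1-HKO, 2 were also called lower, beside 810 of all 15559 genes tested. Without replicate 3 labelled B4galt1-HKO, 5 were called lower, beside 7.51%.

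Levels of different genes can be set side by side only per length, and the deposited FPKM serve for this. In WT livers Adh1 had the highest level, at 1169 FPKM ± 53.0 (SD, n = 4), above Aldh1a1 at 513 ± 53.0 and Aldh2 at 474 ± 55.4, whose ranges overlapped. Adh5 (219 ± 23.6) and Aldh1l1 (172 ± 29.1) came next with overlapping ranges, then Aldh3a2 (125 ± 12.9) and Aldh1a7 (106 ± 5.98), also overlapping. Aldh1b1 (75.0 ± 9.95), Adh4 (31.9 ± 2.97) and Adh7 (2.10 ± 0.205) stood apart from their neighbours. The lengths behind the deposited FPKM were 3180 bases for Adh4 and 7829 for Aldh3a2, against 1314 and 3091 bases for 1 annotated transcript of each. The order depends on that choice. With the annotated transcript lengths for all members, Aldh3a2 stood at 316 ± 32.7 in WT, above Adh5 (230.4 ± 24.8) and Aldh1l1 (135 ± 22.8), and Adh4 was at 77.3 ± 7.19, beside Aldh1b1 at 75.2 ± 9.97.

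**Figure D3:**
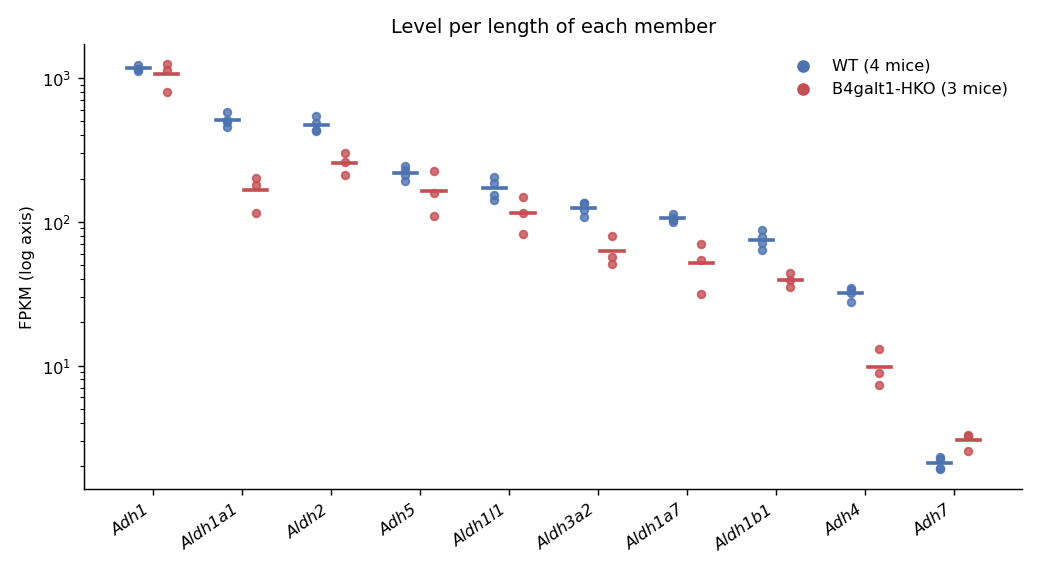
FPKM of the 10 members on a log axis, ordered by the WT mean. Points are single livers and short lines are group means, blue for WT and red for livers labelled B4galt1-HKO. Adh1 leads in both groups, and Aldh1a1 is second in WT and the third in livers labelled B4galt1-HKO.

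In livers labelled B4galt1-HKO the order by deposited FPKM was the same but for one exchange. Adh1 stayed first at 1063 FPKM ± 235 (SD, n = 3), Aldh2 was second at 258 ± 44.2 and Aldh1a1 the third at 166 ± 44.8, and the ranges of Aldh2 and Aldh1a1, which overlapped in WT, did not overlap. Aldh1a1 overlapped with Adh5 (164 ± 58.2) and Adh5 with Aldh1l1 (115 ± 33.1). Aldh3a2, Aldh1a7 and Aldh1b1 followed, Aldh3a2 overlapping with Aldh1a7 and Aldh1a7 with Aldh1b1. Adh4 was at 9.76 ± 2.97 and Adh7 at 3.01 ± 0.394. With the annotated transcript lengths Aldh1a1 and Aldh2 did not overlap in WT (589.79 to 750.37 against 461.99 to 589.45). They overlapped in livers labelled B4galt1-HKO (148.65 to 259.23 against 228.26 to 322.97). With those lengths Aldh3a2 and Adh5 also exchanged places between the groups, as did Adh4 and Aldh1b1. FPKM are scaled to the library total, of which mitochondrially encoded transcripts took a larger part in livers labelled B4galt1-HKO, and the median log2(FPKM + 1) difference was -0.14 over the 10914 genes with FPKM of at least 1 in 3 libraries and -0.0032 over all 22960 genes above 0. Mean FPKM of Adh1 was lower in these livers while its mean CPM was 1579.8 in WT and 1598 in them.

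Shares within a family do not depend on that scaling. Aldh1a1 made up 35.02% ± 1.79 (SD, n = 4) of the summed FPKM of the 6 aldehyde dehydrogenase members in WT and 23.7% ± 2.81 (SD, n = 3) in livers labelled B4galt1-HKO. Aldh2 made up 32.3% ± 1.67 and 37.3% ± 0.664 of it, and its share exceeded that of Aldh1a1 in each liver labelled B4galt1-HKO, with annotated transcript lengths too, and in WT replicate 1 with the deposited lengths only. Among the 4 alcohol dehydrogenase members, Adh4 held 2.24% ± 0.173 in WT and 0.796% ± 0.199 in livers labelled B4galt1-HKO (5.49% and 1.997% with annotated transcript lengths), and Adh1 held 82.2% ± 1.41 and 85.9% ± 1.64. The summed level of the 6 aldehyde dehydrogenase members was 5255 ± 438 CPM in WT and 2821 ± 751 CPM in livers labelled B4galt1-HKO, with no overlap between mice. The sum of the 4 alcohol dehydrogenases was 2042 ± 180 and 1938 ± 637 CPM, with overlapping ranges. These shares and sums were not tested.

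The genes whose profiles over the 7 livers were most like that of Adh4 were Nat8, Nat8f2, Gstm4, Alas2 and Ncam2, with root mean square distances of 0.149 to 0.200 between centred log2 CPM values. Tested genes with placeholder symbols, such as those starting in Gm or LOC or ending in Rik, were left out of this search. Alas2 starts heme synthesis in red cell precursors, and Gstm4 is a glutathione transferase. Within the 10 members, the closest pairs were Adh4 and Aldh1a1 at 0.213, Adh1 and Adh5 at 0.215 and Aldh2 and Aldh3a2 at 0.223, and the farthest was Adh4 and Adh7 at 1.10. These distances rest on 7 libraries that share their group difference.

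Partner pathways were read from lists chosen by function. Of 15 genes of ethanol oxidation and carbonyl reduction that are no members, 8 were lower and none was higher, with a median log2 fold change of -0.70. They included Cbr3, a carbonyl reductase (-1.53), Akr1b3, the aldose reductase (-1.45), Cyp2e1, the microsomal ethanol-oxidizing cytochrome (-1.32), and Aox3, an aldehyde oxidase (-1.19). Among the 19 folate one-carbon genes around Aldh1l1 that are reported here, 4 were lower, Atic (-1.11) and Mthfd1 (-0.85), Sardh (-0.73) and Shmt1 (-0.64), with a median of -0.32. DESeq2 called 7 of them lower and 2 higher, and 2 were higher at an unadjusted p under 0.05, Mthfd2l and Ftcd, named after their values were seen. Among 12 genes that supply fatty aldehydes to Aldh3a2 or handle their lipid sources, 1 was lower, the alkylglycerol monooxygenase Agmo (-1.81), and the median was -0.09. Of 15 retinoid genes 12 were tested, and 2 were lower, the retinol dehydrogenases Rdh9 (-1.06) and Dhrs4 (-0.88), with a median of -0.28. In the list of 5 choline and betaine genes, 1 was lower, Aldh7a1, counted above, and the median was -0.39. None of these 5 lists except the folate list had a higher gene at an unadjusted p under 0.05 or in DESeq2, voom or limma.

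**Figure D4:**
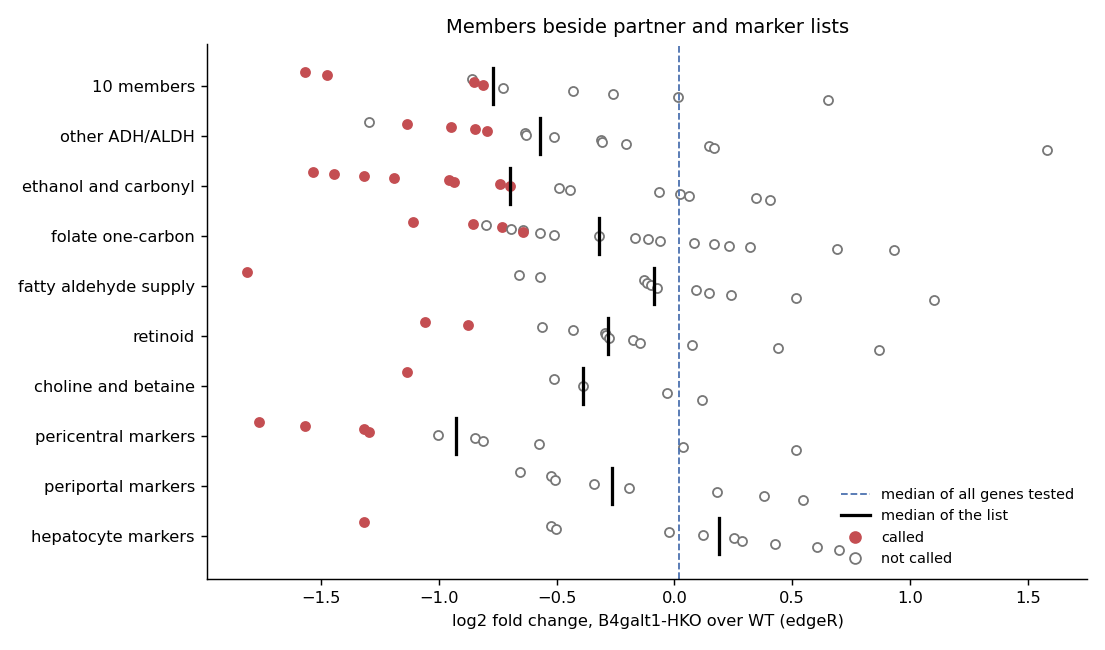
Log2 fold change of each gene tested in the 10 members and in 9 lists of partner genes and hepatocyte markers. Red points are called genes, open points are not, black bars are list medians and the dashed line is the median of all genes tested. The medians of the members (-0.77), the ethanol and carbonyl genes (-0.70) and the pericentral markers (-0.93) lie lowest.

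Other markers moved between the groups along with the members. Of 10 markers of pericentral hepatocytes, the cells around the central vein, 4 were lower, Oat, Slc1a2, Cyp2e1 and Glul (8 at an unadjusted p under 0.05, 7 in DESeq2, 5 in voom and 7 in limma), and the summed level of all 10 was 11687 to 13228 CPM in WT and 3209 to 6868 CPM in livers labelled B4galt1-HKO. Cyp2e1 made up most of that sum, and the other 9 summed to 2373 to 3359.8 CPM and 792 to 1653 CPM. Axin2 and Tbx3 were not lower, with log2 fold changes of 0.04 (adjusted p = 0.942) and 0.52 (adjusted p = 0.378), named after their values were seen. None of 8 periportal markers was called in edgeR or DESeq2 (1 lower at an unadjusted p under 0.05, 1 lower in voom and 2 in limma), and their sums overlapped, at 8833 to 12761 and 8342 to 12386 CPM. Of 10 general hepatocyte markers 1 was called, Cyp2e1, which is also pericentral and among the ethanol genes. At an unadjusted p under 0.05, 2 of them were higher and 1 lower, as in DESeq2, while voom called 1 higher and 1 lower and limma 1 higher and 3 lower. Of 17 male-biased liver genes 10 were lower and none was higher, and of 14 female-biased genes 8 were higher and none was lower, with 0 in the opposite direction also at an unadjusted p under 0.05 and in DESeq2, voom and limma, while 4 Y-linked genes were detected in all 7 livers without a call (Kdm5d lower at an unadjusted p under 0.05) and Xist had at most 10 counts. Of 11 macrophage markers 6 were lower (8 at an unadjusted p under 0.05, 7 in DESeq2, 5 in voom and 7 in limma), their sum being 924 to 1874 CPM in WT and 475 to 509 CPM in livers labelled B4galt1-HKO. Gpnmb was the largest part of that sum, with means of 709 CPM in WT and 215 CPM in livers labelled B4galt1-HKO. Clec4f, Cd5l, Timd4, Itgam and Ccr2, named after their values were seen, were not called in edgeR. Of 11 stellate cell and fibroblast markers 2 were lower (2 in DESeq2 and voom, 1 in limma) and of 7 endothelial markers 1 (1 in DESeq2, 0 in voom and limma), with overlapping sums. None of 8 cholangiocyte markers (1 lower at an unadjusted p under 0.05, 0 in DESeq2, voom and limma) and 8 lymphocyte markers (1 higher at an unadjusted p under 0.05, 1 in DESeq2, 2 in voom and 0 in limma) was called. Of 5 erythroid genes 1 was lower and 1 higher (1 and 2 in DESeq2 and voom, 1 and 0 in limma). Of 13 mitochondrially encoded genes 12 were higher, and leaving those 13 genes out of the fit left 4 members called. None of these marker lists had a member at 0 in every library, except Sult3a1 among the female-biased genes. The part of these markers, of mitochondrial RNA and of depth in the members' changes was not tested.

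**Figure D5:**
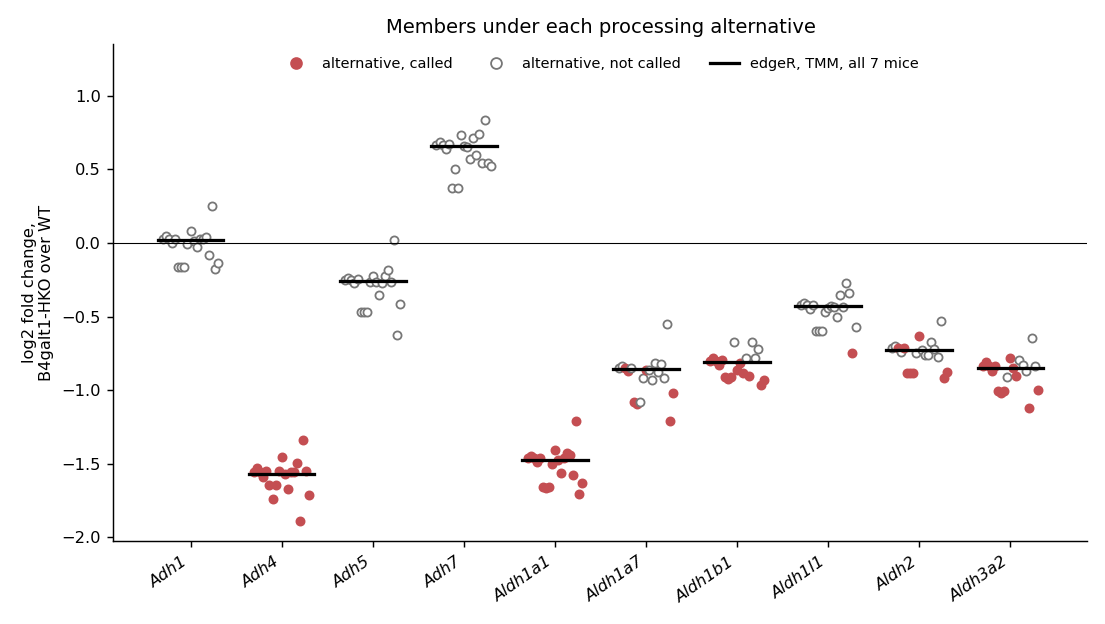
Log2 fold change of each member under 19 alternative settings (points) and in the edgeR fit with TMM scaling and all 7 mice (bar). Red points passed both thresholds. Adh4 and Aldh1a1 were called in every alternative, Aldh1b1 and Aldh3a2 in 14 and 13 of 19, and Adh1, Adh5 and Adh7 in none.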

How the data were processed

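Liver RNA was extracted with TRIzol, made into libraries with a VAHTS Universal kit and sequenced at OE Biotech. The authors deposited raw counts per gene and mouse, and FPKM for the same genes, which equal the count divided by a fixed length and the library total to within 7.22e-06 percent over 13374 genes. The submitters' processing notes name fastp, HISAT2, HTSeq, DESeq2, R 3.2.0 and GRCm39. The annotation release and the strand setting are not given in the sources used here. Groups and replicate numbers came from the sample labels, and no 2 libraries agreed within sampling noise. Each library is a separate mouse, so p-values measure the spread between mice.

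Genes passing filterByExpr (minimum count 10, minimum total 15; 15179 of 23347) were tested with edgeR 4.0.16 in R 4.3.3 (TMM, quasi-likelihood F-test on group, Benjamini-Hochberg adjustment over all genes tested). Calls needed an adjusted p below 0.05 together with a log2 fold change beyond 0.58 in size, the study's thresholds. Standard errors came from the F statistic, and intervals are 95%. A count of 3 corresponds to 0.0690 to 0.0987 CPM. The alternatives were RLE and upper-quartile scaling, DESeq2 1.42.0, other filters, limma 3.58.1 on log2(FPKM + 1) or log2(FPKM + 0.1), which understates changes of low genes, voom with sample weights, a replicate block, removal of mitochondrially encoded genes, each mouse left out, no fold threshold, and library totals without TMM, the last chosen after seeing the data. The tests were tried on simulated counts first. A gene that missed the thresholds is not shown to be unchanged. Promoter windows came from RefSeq, and transcripts and gene order from GENCODE M21 and RefSeq, all on GRCm38. The members and all lists were chosen with earlier results of these data known. All members are named, and of other lists up to 4 called genes by absolute fold change, beside the wider family. 1 gene of the folate list is not reported here, and its counts and median leave that gene out.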

Additional observations from a re-analysis of the deposited data

How the results depend on the processing

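Of 190 values of the 10 members under 19 alternatives, 154 kept their direction and side of the threshold, 11 lost the call, 16 gained it and 9 changed sign. The sign changes were those of Adh1, at -0.16 with limma on log2(FPKM + 1) and on log2(FPKM + 0.1) with the filter and again on log2(FPKM + 1) without it, -0.0061 with the replicate block, -0.14 without TMM and -0.18 to 0.25 with single mice left out, and of Adh5, at 0.0225 without replicate 2 labelled B4galt1-HKO (range over single mice left out -0.63 to 0.0225). None of these was called.

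The number of members called was 2 to 6 with single mice left out and 4 to 6 under the remaining alternatives without a block. In the other family genes it was 2 to 5 and 4 to 5. Calls among all genes numbered 2404, 3271 with DESeq2, 1246 with limma on all genes above 0 and 885 to 2396 with single mice left out, the lowest without WT replicate 2. Higher genes made up 50.5% of calls with TMM, 26.7% without TMM, and 24.5%, 23.1% and 17.6% in the limma fits on FPKM, and the median of all genes tested moved to -0.10 without TMM and to -0.14 and -0.18 in the filtered FPKM fits. B4galt1 was called at -0.67 with limma on log2(FPKM + 1) after the filter (adjusted p = 0.0399), but not without that filter (-0.67, adjusted p = 0.127) or on log2(FPKM + 0.1) (-0.73, adjusted p = 0.0525), and ranged from -0.96 to -0.30 with single mice left out, called without replicate 3 labelled B4galt1-HKO (-0.96). With the replicate number as a block, 2 members, 2 other family genes and 1267 genes overall were called. Deviations of same-numbered mice from their group means correlated at r = -0.31, -0.02 and 0.07 for replicates 1 to 3. Mice with different numbers were not set beside them, so these values cannot show whether the numbers pair the mice. The causes were not tested.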
